A study of Mus musculus with 2 samples.

Results

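The 33 genes described here encode the enzymes of glycolysis and of the pentose phosphate pathway, lactate dehydrogenase, and carriers of glucose and lactate. They were chosen by name from the pathway, but with earlier results of these data known. All 33 were found among the 21853 protein-coding genes of the GENCODE M21 mouse annotation. Accessible chromatin was measured by ATAC-seq, in which the Tn5 transposase cuts open DNA and leaves sequencing adapters there. The material was megakaryocyte-erythroid progenitors (MEP), primary cells of the bone marrow whose descendants are red cells and platelets, from male C57BL/6J mice aged 5 to 6 weeks. There was 1 group of 2 libraries, called replicate 1 and replicate 2, each made from 50000 cells. Both name the same donor entry but separate biosample entries, so the spread between them may be technical, and no group contrast or test was possible.

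Glycolysis splits glucose into pyruvate with a net gain of ATP, and the pentose phosphate pathway turns the same sugar into NADPH, which keeps glutathione reduced, and into ribose for nucleotides. A mature red cell has no mitochondria, so it draws its ATP from glycolysis and its NADPH from the pentose phosphate pathway, and inherited defects of several of these enzymes cause haemolytic anaemia. Most glycolytic steps have several isoenzymes, encoded by separate genes or by separate start sites of 1 gene, with different tissue use. Pklr makes the red cell form of pyruvate kinase from its upstream start and the liver form from its downstream start. BPGM makes the bisphosphoglycerate that lowers the oxygen affinity of haemoglobin. In human red cells, hexokinase 1 comes partly from a transcript with a first exon of its own.

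The sequences of 6 start sites are shown first because the results turn on them. Each is the 200 bases before an annotated start, read 5′ to 3′ along the gene from the RefSeq GRCm38.p6 genome, the build of the peak lists (mm10). Capitals mark GATA matches (AGATAA as well as AGATAG, and also the forms that begin with T, TGATAA as well as TGATAG, on either strand) and KLF matches (CCACACCC or CCCCACCC, either strand) in the Pklr and Hk1 sequences. In the Bpgm sequence capitals mark CCAAT on either strand, and in the Pgk1 sequence ACGTG, the core of the hypoxia response element, on either strand.
Pklr upstream start, chr3:89135942-89136141, plus strand: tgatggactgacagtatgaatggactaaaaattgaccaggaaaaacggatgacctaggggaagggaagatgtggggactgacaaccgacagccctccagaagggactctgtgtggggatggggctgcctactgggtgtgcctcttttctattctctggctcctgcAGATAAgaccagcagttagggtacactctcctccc
Pklr downstream start, chr3:89136372-89136571, plus strand: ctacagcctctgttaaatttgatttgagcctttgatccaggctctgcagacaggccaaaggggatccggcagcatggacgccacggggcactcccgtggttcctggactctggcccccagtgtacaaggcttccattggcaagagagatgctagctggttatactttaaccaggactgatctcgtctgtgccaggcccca
Hk1 outer start, chr10:62342723-62342922, minus strand: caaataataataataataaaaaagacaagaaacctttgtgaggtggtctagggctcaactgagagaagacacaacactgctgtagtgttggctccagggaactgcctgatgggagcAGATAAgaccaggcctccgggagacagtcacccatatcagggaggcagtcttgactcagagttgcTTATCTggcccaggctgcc
Hk1 middle start, chr10:62340543-62340742, minus strand: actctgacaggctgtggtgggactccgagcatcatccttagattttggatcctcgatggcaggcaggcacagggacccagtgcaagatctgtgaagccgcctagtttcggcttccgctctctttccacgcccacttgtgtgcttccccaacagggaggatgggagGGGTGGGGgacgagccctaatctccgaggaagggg
Bpgm start, chr6:34476007-34476206, plus strand: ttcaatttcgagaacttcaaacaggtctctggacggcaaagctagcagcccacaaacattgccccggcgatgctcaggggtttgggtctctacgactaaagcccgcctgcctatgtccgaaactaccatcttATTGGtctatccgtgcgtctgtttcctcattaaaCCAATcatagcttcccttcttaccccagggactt
Pgk1 start, chrX:106186900-106187099, plus strand: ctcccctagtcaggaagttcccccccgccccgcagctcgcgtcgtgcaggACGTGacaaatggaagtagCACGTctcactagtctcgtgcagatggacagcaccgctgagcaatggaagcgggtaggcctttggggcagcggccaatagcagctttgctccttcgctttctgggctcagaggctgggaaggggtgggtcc

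The upstream Pklr sequence holds 1 AGATAA match, which begins 35 bases before the start, and the downstream Pklr sequence holds neither a GATA nor a KLF match. The outer Hk1 sequence holds a pair of GATA matches, beginning 84 and 19 bases before the start, and the middle Hk1 sequence holds 1 KLF match, which begins 35 bases before it. Bpgm has 2 CCAAT matches and neither GATA nor KLF. Pgk1 has 2 ACGTG matches, beginning 150 and 131 bases before its start. The base composition of these windows also differs. The outer Hk1 and upstream Pklr windows hold 1 and 2 CpG dinucleotides, against 8 in the middle Hk1 window, 9 in the Bpgm window and 12 in the Pgk1 window. A match describes these letters and does not show that a factor binds.

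Within 1 kb of any annotated protein-coding transcription start of a gene, a region in the IDR-thresholded lists of both libraries made its promoter accessible. IDR, the irreproducible discovery rate, ranks peaks by how well they repeat. The pseudoreplicated lists are longer and hold weaker regions, and the conservative list applies IDR across the libraries. Fold is the authors' value for the peak, its enrichment over local background, on a scale of each library's own. The number of reads was not used here, so depth is unknown. As a check of the cell label, the promoters of 6 of 6 erythroid markers were accessible, against 45.7% of all protein-coding genes. In replicates 1 and 2, Gata1 had fold 4.69 and 5.12, Klf1 4.86 and 6.34, and Tfrc, the strongest, 10.4 and 11.0. Of 5 megakaryocyte markers, 1 (Gp1ba) was accessible by this call and 4 had a region in both pseudoreplicated lists, against 56.5% of all genes. Of the other markers, 0 of 6 for granulocytes and macrophages, 0 of 4 for T cells, 0 of 3 for muscle and 0 of 3 for liver were accessible. The T cell gene Lck had a region in both pseudoreplicated lists, and the liver gene Apoa1 had one in the IDR-thresholded list of replicate 1, at fold 6.94. The B cell regulators Ebf1 and Pax5, 2 of 4 B cell markers, and the neuronal genes Tubb3 and Snap25, 2 of 3, had accessible promoters. Ebf1 at fold 9.94 and 11.2, Pax5 at 9.62 and 11.2 and Snap25 at 10.3 and 11.8 were stronger than Gata1 and Klf1, and Tubb3 had 4.38 and 5.02. What part any other cell type has in the regions below was not tested.

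Of the 33 members, 26 (78.8%) had an accessible promoter, against 45.7% of all protein-coding genes (9988 of 21853). The list of replicate 1 held the same 26 promoters, against 47.7% of all genes, and that of replicate 2 held 27, against 47.9%, the extra member being Pklr. With Slc2a1, Pkm and Eno2, 30 of 33 (90.9%) had a region in both pseudoreplicated lists, against 56.5% of all genes. The conservative list held a promoter region for 29 members, against 54.5% of all genes. Hk3, Pgam2 and Eno3 had none in any of these lists. HK3 is the hexokinase of white blood cells, and PGAM2 and ENO3 are the muscle forms of phosphoglycerate mutase and enolase. By branch, 16 of 22 glycolytic and lactate dehydrogenase genes, 7 of 7 pentose phosphate genes and 3 of 4 carrier genes were accessible.

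The members' called promoters were not stronger than those of all called genes. The median fold of the 26 called members was 7.32 in replicate 1 and 8.07 in replicate 2, against 8.39 and 8.83 for all called genes. Of the 26, 16 (61.5%) lay below the median of all called genes in both libraries, against 44.2% of all called genes, and 9 (34.6%) lay above it in both, against 44.2%. The members below the lower quartile in both libraries (26.9%, against 19.9% of all called genes) were Slc2a3, Gpi1, Gapdh, Slc16a1, G6pdx, Tkt and Taldo1. Those above the upper quartile in both (11.5%, against 20.4%) were Pgk1, Ldhb and Pgd. Fold was higher in replicate 2 for 21 of the 26 members (80.8%), against 66.7% of all called genes, so the order of genes was read within each library. A region can hold several peaks, and its fold is that of the strongest. With the mean of its peaks instead, the members' medians were 5.71 and 5.50, against 6.25 and 6.58 for all called genes. The fold of 7 of the 26 members was then lower by over 1.5 times, a share not counted for all called genes. As means over the libraries these 7 were then Hk2 at 5.77, Tpi1 at 3.69, Ldha at 4.01, Ldhb at 7.52, Rpe at 6.87, Slc16a1 at 3.72 and Slc16a3 at 5.12.

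**Figure D1:**
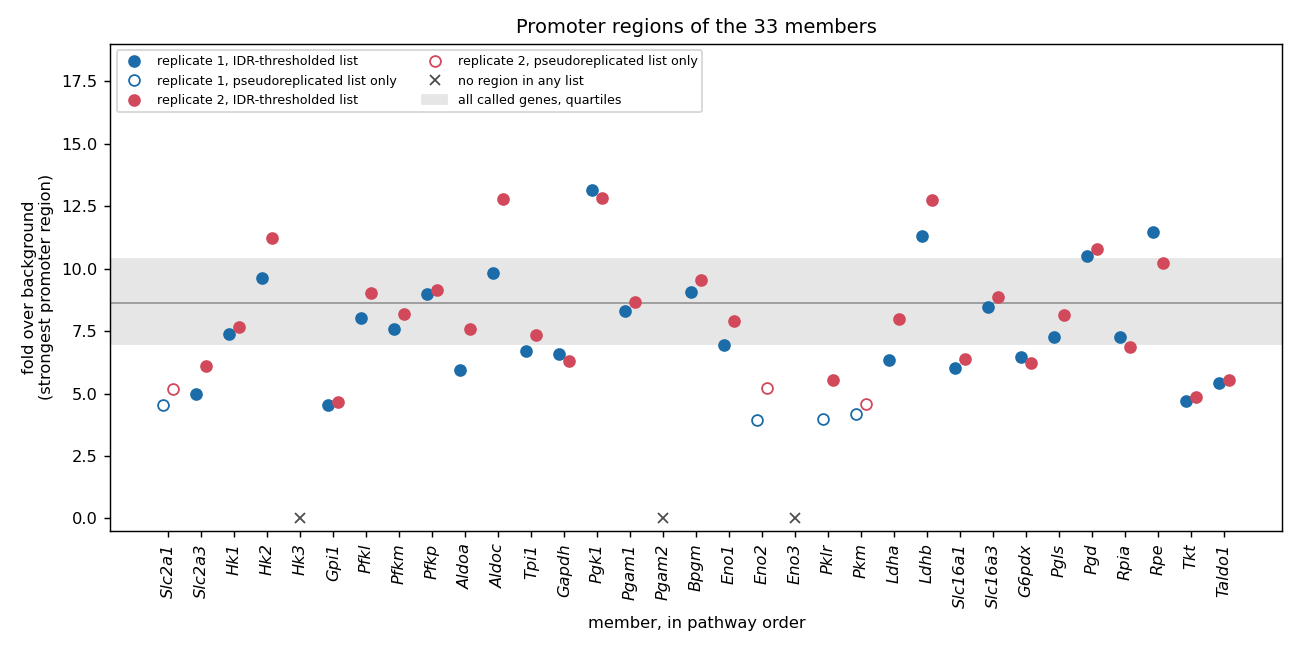
Fold over background of the strongest promoter region of each of the 33 members (y axis) in pathway order (x axis), with a point per library, filled for the IDR-thresholded lists and open where the region was in the pseudoreplicated list alone. The grey band and line are the quartiles and median of all called genes, averaged over the libraries, and crosses at 0 mark Hk3, Pgam2 and Eno3, which have no region. Pgk1 sits highest, at 13.1 and 12.8, and Gpi1 and Tkt are the lowest of the filled pairs.

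Glucose enters blood cells through facilitative carriers. The promoter of Slc2a1, the gene for the carrier GLUT1, was in neither IDR-thresholded list, with fold 4.54 and 5.16 in the pseudoreplicated lists of replicates 1 and 2. The promoter of Slc2a3, which encodes the high-affinity carrier GLUT3, was accessible at fold 4.98 and 6.10. Both were among the weak promoters of the set, and their ranges overlapped. Slc2a3 also has a start 58.7 kb further along the gene, which had fold 3.78 and 5.31 in the pseudoreplicated lists alone.

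Hexokinase traps glucose as its phosphate. Hk2, the insulin-responsive hexokinase of muscle and fat, had the strongest promoter of the family, at fold 9.62 and 11.2. Hk1, the main hexokinase of red cells, had fold 7.39 and 7.65, at different starts in replicates 1 and 2, given below. The ranges of Hk2 and Hk1 did not overlap, with a difference of 2.90 ± 0.95 in fold (SD over the 2 libraries). With the mean of a region's peaks the difference was 0.67.

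Hk1 lies on the minus strand at chr10:62268855-62379908 and has 8 separate groups of protein-coding starts. Its most upstream starts were closed. No region in either library lay within 1 kb of the first start or of those 4.81, 17.6 and 21.5 kb after it, although the start at 4.81 kb carries 7 annotated transcripts. Accessible chromatin began at the outer start, 37.2 kb after the first, whose sequence with the pair of GATA matches is given above. There the fold was 5.11 in the pseudoreplicated list of replicate 1 and 4.46 in the IDR-thresholded list of replicate 2, and the pooled summit lay 23 bases before the start. The middle start, 39.4 kb after the first, had fold 7.39 and 7.33. Its pooled summit lay 271 bases after the start, whereas its KLF match lies before it. An inner start, 52.1 kb after the first, had fold 6.65 and 7.65. The last start, at 61.5 kb, had no region. Hence 2 of 8 Hk1 start groups were accessible in both IDR-thresholded lists and 3 in both pseudoreplicated lists. The values of the middle and inner starts overlapped between libraries, and the outer start was weaker than both in each library. The outer start had no KLF match and the middle start no GATA match, so these neighbouring starts, 37.2 and 39.4 kb along the gene, differ in both motifs as well as in fold.

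**Figure D2:**
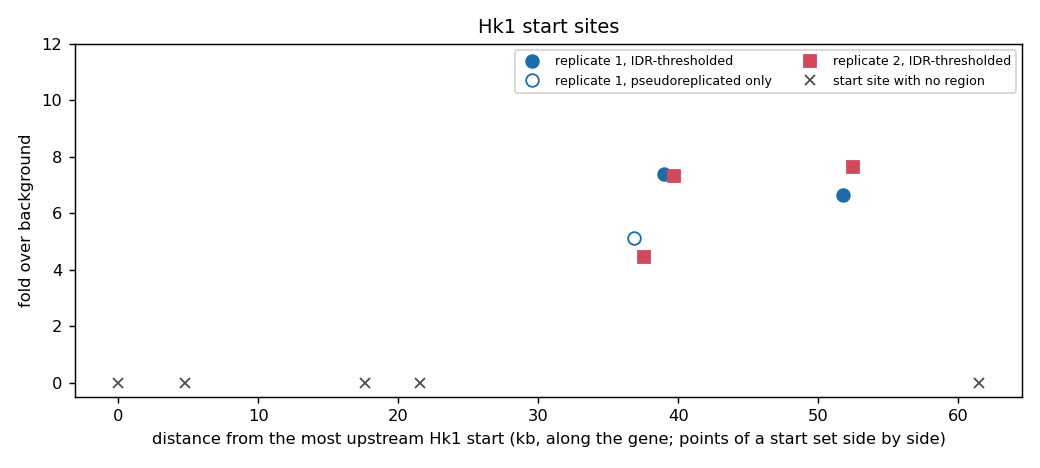
Fold over background (y axis) of the region at each of the 8 groups of Hk1 starts, by distance along the gene from the most upstream start in kb (x axis), with circles for replicate 1 and squares for replicate 2. Open symbols are regions in a pseudoreplicated list alone and crosses are starts with no region. The 3 starts with a region lie at 37.2, 39.4 and 52.1 kb, and the starts from 0 to 21.5 kb are closed.

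Glucose phosphate isomerase, encoded by Gpi1, had 1 of the weakest called promoters, at fold 4.55 and 4.68. Phosphofructokinase, the committed step of glycolysis, is built from 3 subunit types, and all 3 genes were accessible. Pfkp (platelet type) had fold 8.99 and 9.16, Pfkl (liver type) 8.01 and 9.05, and Pfkm (muscle type) 7.56 and 8.18. Pfkp was highest in each library, by 0.98 in replicate 1 and 0.12 in replicate 2, and neighbours in this order overlapped between the libraries. With the mean of a region's peaks the order differed between the libraries. It was Pfkl at 7.73, Pfkp at 6.22 and Pfkm at 5.34 in replicate 1. In replicate 2 it was Pfkm at 8.18, Pfkp at 6.29 and Pfkl at 5.16. As means over the libraries Pfkm had 6.76, Pfkl 6.44 and Pfkp 6.25, an order seen in neither library. Pfkm had 2 accessible starts. The first had fold 7.32 and 8.18 and lies within 1 kb of a start of Senp1, a neighbouring gene, so its region cannot be given to Pfkm alone. The second, 15.9 kb along the gene, had fold 7.56 and 7.80.

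Aldolase cleaves the phosphorylated hexose. Aldoc, best known as the brain form, had a stronger promoter at fold 9.81 and 12.8 than Aldoa, the muscle and red cell form, at fold 5.93 and 7.59. The ranges did not overlap, and the difference in fold was 4.55 ± 0.93 (SD over the 2 libraries). Aldoa is split over 2 gene identifiers in the annotation, joined here, and its strongest region was not the same in the 2 libraries. The region at the starts of 1 identifier had fold 5.93 and 7.25 in replicates 1 and 2. That at the start of the other had 5.67 and 7.59. Both lay below Aldoc in each library. The genes with no isoenzyme among the members spread widely. Tpi1 (triose phosphate isomerase) had fold 6.68 and 7.35, Gapdh (glyceraldehyde phosphate dehydrogenase) 6.56 and 6.29, and Pgk1 (phosphoglycerate kinase, an ATP-forming step) 13.1 and 12.8. Pgk1, at chrX:106187100-106203699, was the strongest promoter of all members in both libraries, above 96.0% and 93.0% of all called genes, and its pooled summit lay 120 bases before the start, just after the second ACGTG match shown above.

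Bpgm and Pgam1 encode related enzymes. Bpgm, at chr6:34476207-34505613, had fold 9.07 and 9.56, and Pgam1, the mutase of most tissues, 8.31 and 8.68. Bpgm was thus the higher of the pair in each library, by 0.82 ± 0.081 (SD over the 2 libraries). With the mean of a region's peaks this held in replicate 2, at 9.56 for Bpgm and 5.52 for Pgam1, and turned in replicate 1, at 5.61 for Bpgm and 8.31 for Pgam1. The Bpgm region, chr6:34475855-34476601, held the starts of 3 transcripts, with its summit 4 bases after the first, and left the start 935 bases further on outside.

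Enolase makes phosphoenolpyruvate. Eno1, the form of most tissues, had fold 6.95 and 7.91. Eno2, the neuronal form, was in the pseudoreplicated lists alone at 3.96 and 5.22 and was missing from the conservative list. Eno1 was the higher in each library.

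Pyruvate kinase, the final ATP-forming step, had weak promoters at both genes. Pklr, at chr3:89136142-89146784, had fold 4.0 in the pseudoreplicated list of replicate 1 and 5.52 in the IDR-thresholded list of replicate 2. Pkm, which encodes the form of most tissues and of early blood cells, had fold 4.19 and 4.60 in the pseudoreplicated lists alone. Neither gene was higher in both libraries. The position of the Pklr region was clearer than its strength. It spanned chr3:89135966-89136252 in the conservative list, 287 bp, and held the upstream start, with its summit 34 bases before it. The downstream starts, 430 and 437 bases further on, lay outside the regions of the per-library and conservative lists. The summit thus fell inside the AGATAA match that begins 35 bases before the upstream start.

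Lactate dehydrogenase regenerates NAD, and monocarboxylate carriers take lactate across the membrane. Ldhb, the heart type, had fold 11.3 and 12.7, and Ldha, the muscle type, 6.34 and 7.97. Their ranges did not overlap, and their difference was 4.86 ± 0.13 (SD over the 2 libraries). The accessible Ldha start groups begin 4.36 and 5.61 kb after its most upstream start, which had no region. Slc16a3, the gene for the lactate exporter MCT4, had fold 8.48 and 8.87, at a start 2.21 kb after its first that carries 1 annotated transcript. Its first start, with 1 transcript, and the starts 0.57 kb after it, with 4, had no region. Slc16a1, the gene for MCT1, had fold 6.04 and 6.37. These ranges did not overlap either, with a difference of 2.47 ± 0.045, or 1.40 with the mean of a region's peaks.

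All 7 pentose phosphate genes were accessible, at strengths from the bottom to the top of the set. In the oxidative branch, which makes NADPH, Pgd (phosphogluconate dehydrogenase) had fold 10.5 and 10.8, Pgls (phosphogluconolactonase) 7.25 and 8.16, and G6pdx, the gene for the first enzyme of the pathway, 6.47 and 6.24. The G6pdx region lies within 1 kb of a start of Ikbkg, so it cannot be given to G6pdx alone. In the branch that interconverts sugars, Rpe (ribulose phosphate epimerase) had fold 11.5 and 10.2 and Rpia (ribose phosphate isomerase) 7.24 and 6.87. Tkt (transketolase) had 4.70 and 4.84 and Taldo1 (transaldolase) 5.42 and 5.53. Tkt and Taldo1, which link the pathway back to glycolysis, were the weakest of the 7 in both libraries.

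Further genes of the pathway were read from 4 lists, against the 45.7% of all genes with an accessible promoter. Of 16 regulators of glycolysis and pyruvate entry, 15 (93.8%) were accessible, the exception being Pdk4, and so were 6 of 9 genes linked to the pentose phosphate pathway (66.7%). The share was near that of all genes for further glycolysis isoenzymes and carriers, 7 of 16 (43.8%), and for gluconeogenesis genes, 3 of 7 (42.9%). In the isoenzyme list the germ cell genes Gapdhs, Pgk2 and Ldhc had no accessible promoter, while Eno4, an enolase of sperm, had one at fold 7.87 and 8.41. Among gluconeogenesis genes G6pc and Pck1 had none, while Pcx, the gene for pyruvate carboxylase, had fold 11.0 and 11.5 and Pck2, the mitochondrial counterpart of Pck1, 7.31 and 8.42. The strongest 3 of the 4 lists were Pfkfb1 at fold 12.3 and 15.0, Tigar at 12.1 and 13.1 and Hif1a at 12.8 and 12.3. PFKFB1 sets the level of the main activator of phosphofructokinase, TIGAR opposes that activator, and HIF1A is the oxygen-sensitive factor that raises glycolytic genes.

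Distal regions, those of the conservative list outside 1 kb of every protein-coding start, were counted inside each member or within 50 kb of it. There were 163 of them, or a mean of 5 per member, against 3.18 per gene over all protein-coding genes. The median was also 5, against 3. Per 100 kb of window the median was 4.02, against 1.88. At least 1 such region was found at 31 of 33 members, against 77.2% of all genes. Rpe and Hk3 had 0, Slc16a1 and Rpia had 12 each, Slc2a3 had 10, and Hk1, Bpgm and Tkt had 9 each. The regions themselves were of ordinary strength, with a median pooled fold of 6.07, against 6.36 for all 32778 distal regions. Of the 163, 76 were in both IDR-thresholded lists and 154 in both pseudoreplicated lists. Taken from the IDR-thresholded list of replicate 1 or of replicate 2 in place of the conservative list, the count was 91 or 101. By place, 81 were intergenic, 67 intronic and 15 exonic, and for 84 the nearest start was that of a member. Nearness is no evidence of the gene served.

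**Figure D3:**
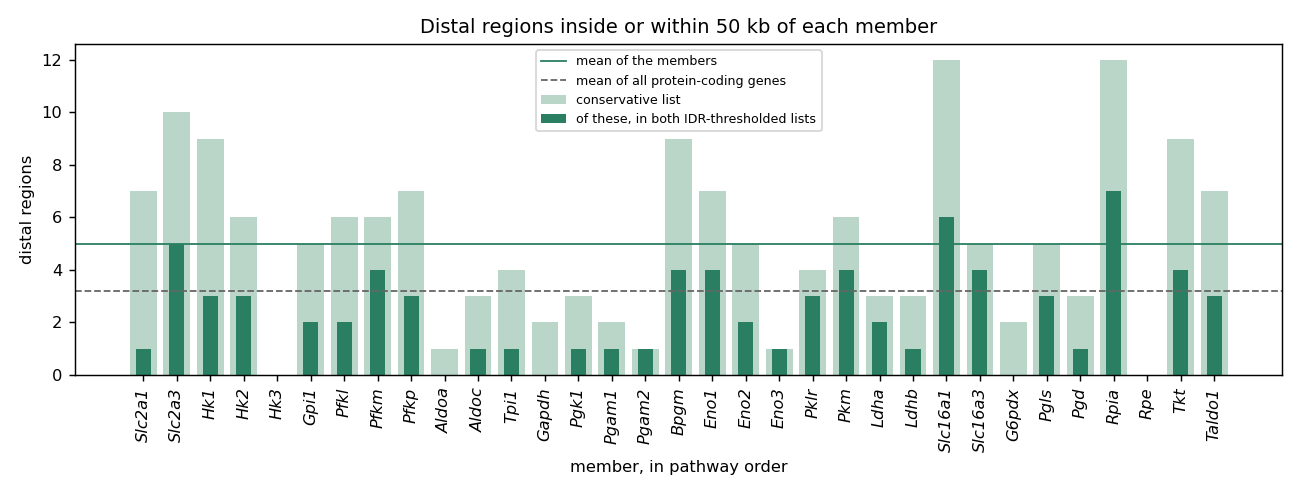
Number of distal regions inside or within 50 kb of each member (y axis), members in pathway order (x axis), with pale bars for the conservative list and dark bars for those also in both IDR-thresholded lists. The solid line is the mean of the members, 5, and the dashed line that of all protein-coding genes, 3.18. Slc16a1 and Rpia reach 12, and Hk3 and Rpe have none.

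The distal regions of the red cell genes are given by their sequences, 201 bases centred on the pooled summit, plus strand of the RefSeq GRCm38.p6 genome, with GATA and KLF matches in capitals. In the last pair capitals also mark a short form of the CTCF motif on either strand. They were chosen because they are the strong regions nearest to Pklr and Bpgm, the intronic region of Hk1 in both libraries, and 2 of the strongest distal regions of all members.
Pklr, 3.6 kb upstream, chr3:89132444-89132644: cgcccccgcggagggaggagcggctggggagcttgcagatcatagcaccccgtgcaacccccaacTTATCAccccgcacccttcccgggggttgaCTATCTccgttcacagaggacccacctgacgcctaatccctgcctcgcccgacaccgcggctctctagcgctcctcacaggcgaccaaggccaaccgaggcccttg
Bpgm, intron, chr6:34486394-34486594: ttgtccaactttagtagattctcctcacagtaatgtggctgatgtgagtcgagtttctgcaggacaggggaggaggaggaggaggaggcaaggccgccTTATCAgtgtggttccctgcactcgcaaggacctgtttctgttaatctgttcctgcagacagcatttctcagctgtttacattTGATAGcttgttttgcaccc
Bpgm, beyond the gene, chr6:34517849-34518049: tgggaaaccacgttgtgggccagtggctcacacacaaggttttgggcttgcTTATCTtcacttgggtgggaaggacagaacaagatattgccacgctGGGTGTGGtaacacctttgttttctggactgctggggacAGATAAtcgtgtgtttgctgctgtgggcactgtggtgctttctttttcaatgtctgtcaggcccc
Hk1, intron, chr10:62332594-62332794: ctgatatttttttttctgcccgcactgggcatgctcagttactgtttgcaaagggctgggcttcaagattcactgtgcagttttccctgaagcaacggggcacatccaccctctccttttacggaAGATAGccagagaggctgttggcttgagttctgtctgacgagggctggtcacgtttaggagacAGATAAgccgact
Slc16a1, beyond the gene, chr3:104701018-104701218: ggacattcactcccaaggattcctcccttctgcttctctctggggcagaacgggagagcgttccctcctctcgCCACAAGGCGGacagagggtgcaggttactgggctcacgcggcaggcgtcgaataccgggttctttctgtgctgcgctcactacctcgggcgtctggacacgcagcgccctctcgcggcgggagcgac
Pfkl, upstream, chr10:78018841-78019041: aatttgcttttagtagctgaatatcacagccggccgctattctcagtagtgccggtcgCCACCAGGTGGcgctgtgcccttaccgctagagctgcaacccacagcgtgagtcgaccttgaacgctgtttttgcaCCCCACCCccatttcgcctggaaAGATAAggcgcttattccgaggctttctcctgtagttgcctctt

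Pklr had 4 distal regions, and the 3 in both IDR-thresholded lists were all stronger than its promoter in each library. The region 3.6 kb upstream (chr3:89132302-89132922, intergenic) had fold 8.47 and 8.70 and holds 2 GATA matches. Another 20.4 kb upstream (chr3:89115376-89115868), nearer to Fdps, had fold 7.26 and 7.53 and holds 1 GATA and 2 KLF matches. The weakest of the 4, in an exon of the neighbouring gene Hcn3 (chr3:89147041-89148264), had fold 5.01 and 4.36 in the pseudoreplicated lists alone.

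Bpgm had 9 distal regions, all of them nearest to its own start, and 8 of the 9 held a GATA match within 201 bases, against 53.8% of all distal regions. The strongest were 41.7 kb after the start, beyond the gene (chr6:34517566-34518241), at fold 10.6 and 9.53, and 10.3 kb after it, in an intron (chr6:34486118-34486815), at fold 8.38 and 9.97. Both were about as strong as the promoter, and their ranges overlapped that of the promoter. A further pair was in both IDR-thresholded lists, 4.6 kb upstream (chr6:34471512-34471997) at fold 4.18 and 4.97, and 32.0 kb downstream (chr6:34507525-34508420) at fold 5.55 and 6.28. A region 28.0 kb upstream (chr6:34448058-34448288) was in that list of replicate 2 alone, with fold 5.63 in the pseudoreplicated list of replicate 1 and 8.40 in replicate 2. The other 4, between 35.3 and 50.4 kb after the start, had pooled folds from 4.30 to 4.61 and were in neither IDR-thresholded list.

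Around Hk1 there were likewise 9, with 4 in the body of the gene and 4 holding a GATA match, against the same 53.8% of all distal regions. Of those in the gene, 1 was in both IDR-thresholded lists, 47.2 kb after the most upstream start and between the middle and inner starts (chr10:62332414-62333116, intron), at fold 5.99 and 7.06, with 2 GATA matches. The other 3, in introns 66.6, 79.2 and 85.9 kb along, had pooled folds of 3.92, 5.34 and 3.57. The stronger pair outside the gene lay nearer to its neighbours. A region in an exon of Tacr2 (chr10:62261070-62261815) had fold 8.79 and 10.2, and an intergenic one nearer to Tspan15 (chr10:62237189-62237698) had 9.33 and 7.48. The remaining intergenic region, nearer to Tacr2 (chr10:62243010-62243276), had a pooled fold of 5.21. The 2 upstream regions in introns of Hkdc1, the neighbouring hexokinase-like gene, had pooled folds of 6.11 and 5.35, although the Hkdc1 promoter itself was not accessible.

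**Figure D4:**
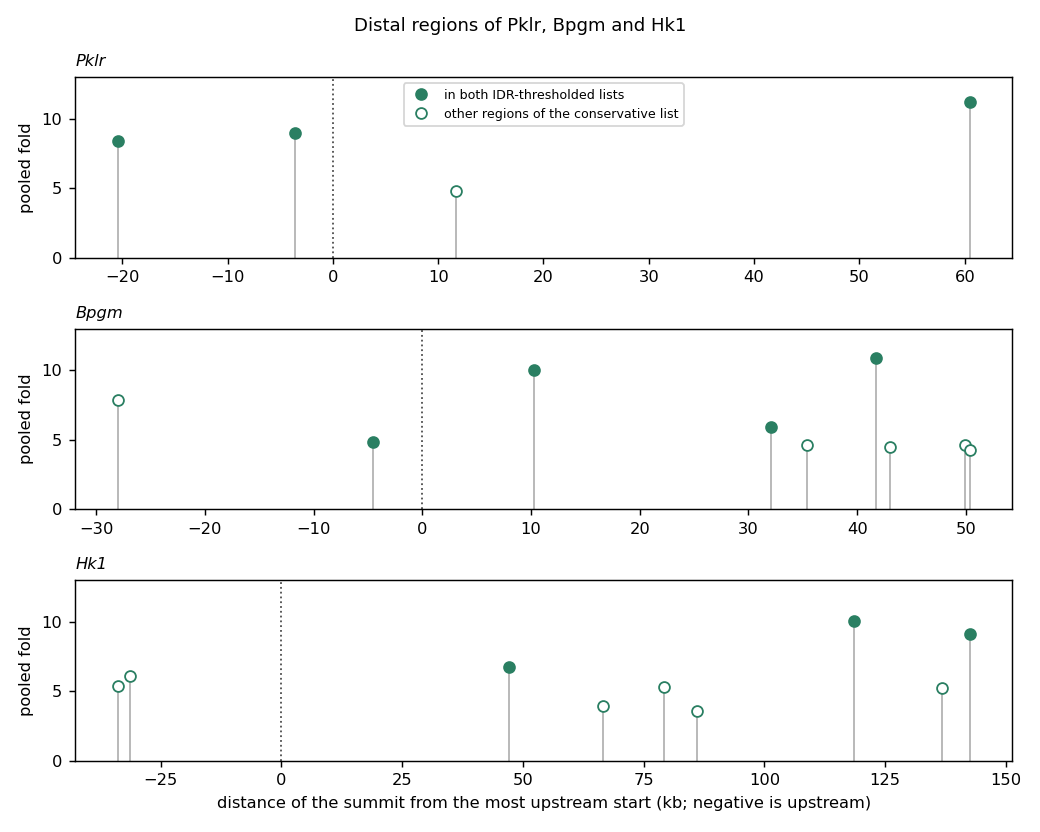
Pooled fold (y axis) of each distal region of Pklr, Bpgm and Hk1 by the distance of its summit from the gene's most upstream start in kb (x axis, negative upstream, dotted line at 0), filled where the region was in both IDR-thresholded lists. Pklr has 3 filled regions of its 4, Bpgm 4 of 9 and Hk1 3 of 9.

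The 10 strongest distal regions of the members by mean fold over the libraries had means from 10.1 to 14.5. They belonged to the windows of Slc16a1, Pfkm, Ldhb, Rpia, Hk2, Pfkl, Ldha and Pklr. Intergenic ones made up 9 of the 10, against 49.7% of all 163 distal regions of the members. That share was not counted over all genes. The strongest lay 62.5 kb after the Slc16a1 start (chr3:104700924-104701328), at fold 12.7 and 16.3, and a second one 68.9 kb after it had fold 9.93 and 11.8. Others were 88.9 kb after the Pfkm start, nearer to the odorant receptor gene Olfr288 (fold 10.9 and 12.9), 22.7 kb upstream of Ldhb (10.8 and 12.2), 32.4 kb upstream of Rpia, nearer to Eif2ak3 (11.0 and 11.9), and in an intron of Pole4 near Hk2 (10.5 and 11.7). Below these came the regions 8.9 kb upstream of Pfkl (10.5 and 10.9), 8.0 kb upstream of Ldha (9.99 and 10.9) and 39.6 kb after the Rpia start (10.2 and 10.1). Of the 10, 6 held a GATA match, against 53.8% of all distal regions, and 3 the CTCF form, against 23.7%. Those with the CTCF form were near Slc16a1 at 62.5 kb, Hk2 and Pfkl, and Pfkl had both.

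Across all 163 distal regions of the members, 53.4% held a GATA match within 201 bases, against 53.8% of all distal regions, so the share of GATA was that of the background. KLF matches were in 12.9%, against 9.42%, and matches to TGACTCA or TGAGTCA, read by NFE2 and BACH factors, in 9.20%, against 5.64%. The hypoxia core ACGTG was in 18.4%, against 12.3%, and the MYC E-box CACGTG, which contains that core, in 8.59% (14 regions), against 4.09%. The CTCF form was in 28.8%, against 23.7%. Shorter counts were GGGCGG (SP1) in 14.1%, against 10.4%, CCAAT (NFY) in 17.8%, against 21.7%, CCGGAAG (ETS) in 1.23%, against 1.82%, and the NRF1 motif in 0 of 163, against 0.0763%. An E-box CANNTG set 7 to 9 bases before AGATAA was in 1.84%, against 1.78%. These shares have no test, since regions are not replicates.

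Of the members' start groups, 38 lay inside a region of the conservative list or of both pseudoreplicated lists. GATA was in 6 of these (15.8%), against 13.7% of the 12426 start groups of all genes that met the same rule. The 6 were the outer Hk1 start, the upstream Pklr start, both open Pfkm starts, the inner Slc2a3 start and a Gapdh start. They held a median of 3.5 CpG in 200 bases, against 10 in the other 32. KLF was in 13.2%, against 11.9%, ACGTG in 21.1%, against 19.3%, CACGTG in 5.26%, against 7.65%, and CCAAT in 36.8%, against 33.2%. GGGCGG was in 47.4%, against 56.6%, and CCGGAAG in 5.26% (2 starts), against 12.4%. For the NFE2 and BACH letters the share was 2.63%, against 2.09%, for NRF1 2.63%, against 1.47%, for the CTCF form 5.26%, against 6.19%, and for the E-box with GATA 0, against 0.0805%. The members' starts also held fewer CpG, a median of 9, against 13.

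**Figure D5:**
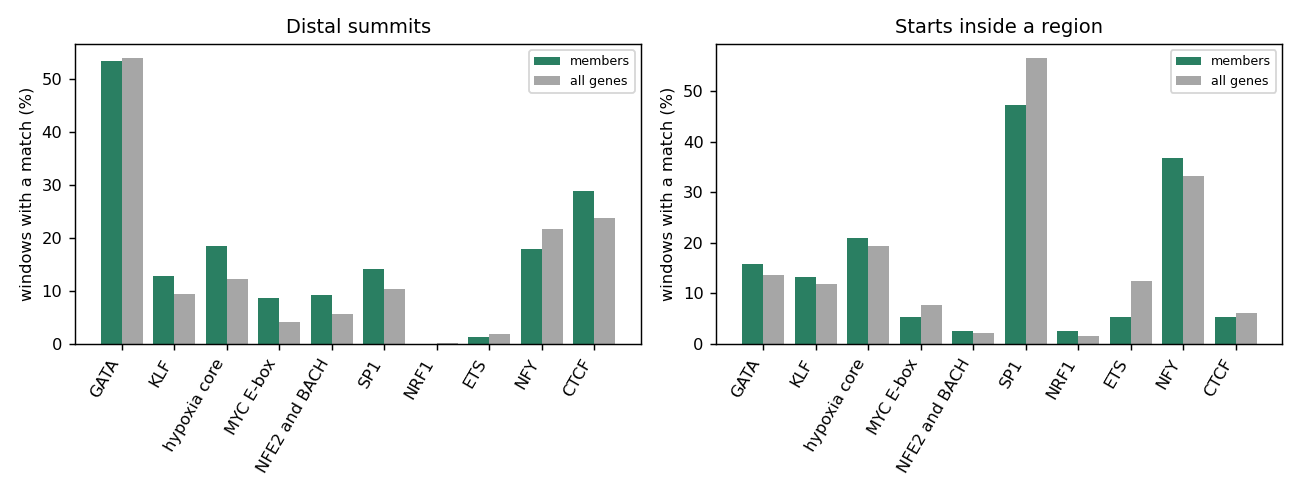
Share of windows with a motif match in percent (y axis) for each motif (x axis), in 201 bases around distal summits (left) and in 200 bases before starts inside a region (right), with green bars for the members and grey bars for all genes. GATA at distal summits is nearly level, 53.4% against 53.8%, and ETS at starts is 5.26% against 12.4%.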

How the data were processed

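ATAC-seq of 2 MEP libraries was analysed from the authors' deposited peak lists on mm10. In these the deposited ratio is the fold of each peak, a reading taken from the values and their place, and the deposited −log10 p, its significance, served in 2 alternatives alone. Lists came from filtered alignments with excluded regions removed, per the deposited read-me texts. The aligner, the peak caller and any Tn5 offset were not given in the sources used here, and read depth is unknown. Replicate 1 is labelled with 2 sequencers and replicate 2 with none.

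Overlapping or touching peaks on 21 chromosomes were merged into regions that carry their strongest peak's fold. Peaks past the end of a chromosome of the RefSeq genome numbered 0. An overlap of 1 bp counted. Starts within 500 bp of each other formed 1 group. Merging was checked on simulated peaks. Python with pandas and numpy was used. All 33 members were described, with coordinates for Pklr, Bpgm, Hk1 and the strongest promoter, the 10 strongest distal regions, and the 3 strongest further pathway genes. Some items these choices select are not reported here. The members, lists and motifs were chosen with earlier results of these data known, and the CTCF form was added after sequences were seen.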

Additional observations from a re-analysis of the deposited data

How the results depend on the processing

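The count of members with an accessible promoter stayed between 23 and 30 under 8 further settings of list, window and annotation. The share of all genes ran from 42.8% to 56.5% under the same settings. With either library left out the count was 26 to 27, against 47.7% to 47.9% of all genes. It was 12 with the upper 50% of regions by fold, against 27.7% of all genes. The lowest of the 8, 23, came from the most upstream start alone, which lost Hk1, Ldha and Slc16a3. Distal regions of members numbered 152 in the pooled IDR-thresholded list and 109 within 25 kb, against 163 as reported. The means per member were then 4.67 and 3.30, against 2.87 and 2.05 per gene over all genes. Distal regions numbered 276 in the replicated list, 272 in the pooled pseudoreplicated list, 67 in the upper 50% by fold and 248 within 100 kb. In that order the means per member were 8.48, 8.36, 2.03 and 7.73. Over all genes they were 6.18, 5.89, 1.32 and 5.34 per gene. For 84 of the 163 the nearest start was that of a member. With 1 library left out the count, then from the IDR-thresholded list of the other, was 91 to 101, and the mean per member was 2.82 to 3.09, against 1.53 to 1.70 per gene over all genes. The mean of all peaks in a region in place of the strongest gave a median promoter fold, averaged over the libraries, of 5.66, against 7.61 with the strongest peak, and moved 21 of 26 members by more than the spread between libraries. The cause of these shifts was not tested. The median was 7.32 to 8.07 with 1 library left out. In each of 6 isoenzyme pairs the gene with the higher promoter fold in the main values came first, so these data set the direction. The glucose carrier, enolase and pyruvate kinase genes were not among the pairs. Of 36 values for the pairs under 6 alternatives, 1 reversed, Pfkp minus Pfkl at -0.19 with the mean of all peaks. That alternative was chosen for the pairs after seeing the data. The smallest other value of Pfkp minus Pfkl was 0.12 in replicate 2. Values from the pseudoreplicated lists and from a 500 bp window equalled the main ones for every pair, so they were no separate check. Leaving out 1 library gave the value of the other. The mean of all peaks was averaged over the libraries, and in replicate 1 alone it put Bpgm below Pgam1, at 5.61 against 8.31. In replicate 2 alone it put Pfkp above Pfkl, at 6.29 against 5.16. Hk1 had 2 to 3 open starts. No paired analysis was possible because there was 1 group. Unknown depth and 2 libraries of 1 donor entry limit every value, a missing region shows only that none passed the authors' threshold, and fold was never scaled between libraries.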
